A study of Mus musculus with 2 samples.

Results

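The genes described here are the 6 protein-coding genes of the mouse mitochondrial DNA (mtDNA) whose products belong to respiratory complexes III, IV and V. They were chosen by name as mt-Cytb, mt-Co1, mt-Co2, mt-Co3, mt-Atp6 and mt-Atp8, and not by a threshold on a measured value, though earlier results of these data were known. All 6 were found in the gene table of 32285 genes, which lists 13 mtDNA-encoded genes in all, the other 7 coding for subunits of complex I. Expression was measured by droplet-based 3′ scRNA-Seq in dissociated retina of male C57BL/6J mice aged 7 months, in 1 library labelled WT and 1 library labelled ND6. The ND6 mice carry a maternally inherited mtDNA point mutation that exchanges a proline of the complex I subunit ND6 for a leucine. The line was made by embryonic stem cell fusion and passes the mutation on through the mothers, which are bred to WT fathers, whereas WT mice came from matings of siblings. The labels do not say how many retinas entered a library. The mutation is a single base, so the UMI counts (unique molecular identifiers, each standing for 1 captured RNA molecule) of mt-Nd6 cannot check the genotype.

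Complex III passes electrons from ubiquinol to cytochrome c, complex IV passes them from cytochrome c to oxygen, and complex V is the ATP synthase, which is driven by the proton gradient that the other complexes build. Each complex is made from subunits of both genomes. Cytochrome b (mt-Cytb) carries the quinone sites and the b hemes of complex III, COX1 (mt-Co1) holds the site of oxygen reduction, COX2 (mt-Co2) takes up the electrons of cytochrome c, and COX3 (mt-Co3) is the third core subunit of complex IV. ATP6 and ATP8 sit in the membrane part of the ATP synthase, where ATP6 lines the path of the protons. The mtDNA genes of one strand are transcribed as one long RNA that is cut at the tRNAs and then polyadenylated, so that genes of one transcript can still reach different levels. Photoreceptors are known for dense mitochondria in their inner segments.

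All 6 genes lie on the plus strand of chromosome M in the GRCm38 (mm10) assembly, as exons without introns, per the GENCODE M21 annotation. Per that annotation, mt-Co1 runs over chrM:5328-6872, mt-Co2 over chrM:7013-7696, mt-Atp8 over chrM:7766-7969, mt-Atp6 over chrM:7927-8607, mt-Co3 over chrM:8607-9390 and mt-Cytb over chrM:14145-15288. The genes mt-Atp8 and mt-Atp6 share 43 bases and leave the precursor as one RNA, and mt-Atp6 and mt-Co3 share 1 base. Since mt-Atp8 is the member that differed most between the libraries, its whole 204-base coding sequence is shown, with the 43 bases that it shares with mt-Atp6 in capitals. The ATG that opens the capitals is the start codon of mt-Atp6. The last 30 bases of 3 other members follow as annotated, with the final codon or final base in capitals. For mt-Co3 and mt-Cytb these bases lie next to the poly(A) tail that a 3′ library reads from.
mt-Atp8: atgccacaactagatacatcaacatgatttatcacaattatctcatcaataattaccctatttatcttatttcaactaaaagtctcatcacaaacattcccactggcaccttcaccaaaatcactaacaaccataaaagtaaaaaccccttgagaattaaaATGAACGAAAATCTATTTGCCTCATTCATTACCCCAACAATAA
mt-Co1, end: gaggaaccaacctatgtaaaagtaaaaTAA
mt-Co3, end: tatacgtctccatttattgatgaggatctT
mt-Cytb, end: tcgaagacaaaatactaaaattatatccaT
The sequences of mt-Co3 (784 bases) and mt-Cytb (1144 bases) end in a single T after their last whole codon, and the stop codon is completed by the poly(A) tail. The other 4 members end in a full TAA codon. mt-Co1, at 1545 bases the longest member, was also the one member with a run of 6 or more A within the gene. That run of 7 A, shown in capitals, begins at base 789 of the gene and lies within chrM:6104-6133, while the longest runs of the other 5 members held 4 or 5 A.
mt-Co1, A run: ttactactccggAAAAAAAgaacctttcgg

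A barcode counted as a cell with over 400 UMIs, over 200 genes and no more than 20% of its UMIs from mtDNA, which left 12529 WT and 18395 mutant cells. They held 4463616 WT and 4416350 mutant mtDNA UMIs, or 8.19% and 7.02% of all UMIs in cells. The libraries stood apart before any gene was compared. Of the barcodes that passed the limits on UMIs and genes, 45.9% in the WT library but 17.3% in the mutant library exceeded 20% mtDNA. In barcodes with over 100 and up to 400 UMIs, too few for a cell, mtDNA made up 46.7% of the WT and 14.4% of the mutant UMIs. Both libraries used 143 of the barcode sequences that passed the limits on UMIs and genes, and 59 of these were cells in both. Leaving out all cells with one of the 143, which left 12454 WT and 18282 mutant cells, kept each member's log2 ratio inside its counting interval. The main measure was therefore each gene's share of the UMIs of the 13 mtDNA-encoded genes, summed over cells. Shares sum to a fixed total, so that a rise of one gene lowers the others. Intervals in parentheses are exact 95% intervals for counting error only. Each genotype has 1 library, so nothing is known of how mice of a genotype vary, and the values are given without a test.

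In all cells, the 6 genes made up 76.3% of the WT and 77.8% of the mutant mtDNA UMIs, with the ratio of mutant to WT at 0.028 on the log2 scale (0.025 to 0.030). The cytochrome b gene mt-Cytb held 14.9% of the WT and 15.5% of the mutant mtDNA UMIs, a log2 ratio of 0.052 (0.047 to 0.057). Within complex IV, the share of mt-Co1 was 11.1% in the WT and 10.1% in the mutant library, with a log2 ratio of −0.13 (−0.14 to −0.13). That of mt-Co2 was 13.5% and 14.2%, a log2 ratio of 0.070 (0.065 to 0.075). The share of mt-Co3 was 17.7% and 18.9%, a log2 ratio of 0.098 (0.094 to 0.103). The 3 complex IV genes thus did not move in one direction. Together they held 42.3% and 43.2%. Without the 20% limit the log2 ratio was −0.024 for mt-Co1, 0.062 for mt-Co3 and 0.032 for mt-Cytb.

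For complex V, mt-Atp6 held 18.8% of the WT and 18.9% of the mutant mtDNA UMIs, a log2 ratio of 0.012 (0.0078 to 0.017), which turned to −0.0079 without the 20% limit. Its partner mt-Atp8 held 0.318% in the WT library (14188 UMIs) and 0.131% in the mutant library (5800 UMIs), a log2 ratio of −1.28 (−1.32 to −1.23). A ratio of at least 1.5-fold was used as the mark of a large difference. By that mark 1 of the 6 members differed, mt-Atp8, against 15.4% of the 13 mtDNA-encoded genes, where the second was the complex I gene mt-Nd4l with −0.99. Both genes are the shorter partner of an overlapping pair: mt-Nd4l shares 7 bases with mt-Nd4, whose log2 ratio was −0.057, as mt-Atp8 does 43 with mt-Atp6. The next lowest ratios were −0.52 for mt-Nd6, −0.46 for mt-Nd3, which shares no bases with another of the 13 genes, and −0.45 for mt-Nd5. These genes, mt-Atp8 and mt-Nd4l also held the smallest shares of the 13 genes in both libraries. Of the 7 complex I genes, 6 had a lower share in the mutant library, and their log2 ratios ranged from −0.99 to 0.16. Barcodes with over 100 and up to 400 UMIs gave mt-Atp8 at 0.301% and 0.161%, a log2 ratio of −0.90 (−0.97 to −0.83). The mt-Atp8 difference was thus present, at a smaller size, in barcodes with too few UMIs to be cells. The same barcodes held mt-Co1 at 9.91% and 9.99%, a log2 ratio of 0.012 (0.0032 to 0.022), so that the lower mt-Co1 of the mutant cells was not seen there.

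**Figure D1:**
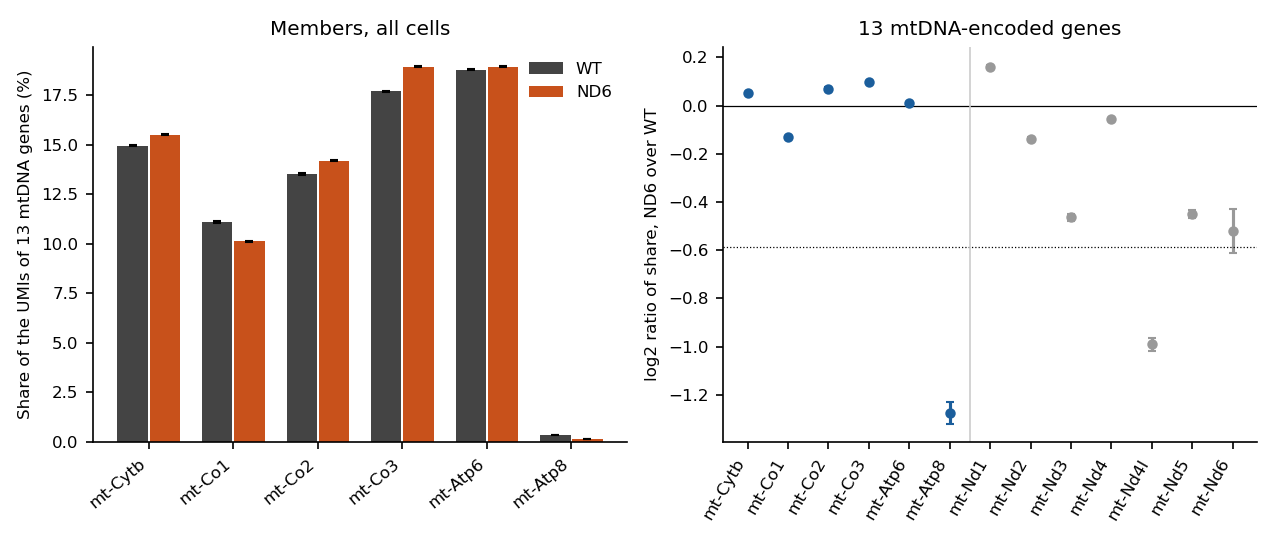
Left, share of the UMIs of the 13 mtDNA-encoded genes (%) held by each of the 6 members in all WT cells (gray) and all mutant cells (ND6, orange), with exact 95% counting intervals. Right, log2 ratio of share, mutant over WT, for the 6 members (blue) and the 7 complex I genes (gray), with counting intervals and a dotted line at a 1.5-fold lower share; mt-Atp8 at −1.28 and mt-Nd4l at −0.99 lie below the line.

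As CPM, the UMIs of a gene scaled to the same total of UMIs of all genes, all 6 members were lower in the mutant cells. Their summed level was 62482 CPM in the WT and 54582 CPM in the mutant library, with a log2 ratio of −0.195 (−0.197 to −0.193). The log2 ratio of CPM was −0.17 for mt-Cytb, −0.35 for mt-Co1, −0.15 for mt-Co2, −0.12 for mt-Co3, −0.21 for mt-Atp6 and −1.50 for mt-Atp8. The median over the 6 members was −0.19, beside 0.067 over the 15888 genes with at least 20 UMIs, of which 43.3% were lower in the mutant library by any amount. By CPM, 1 of the 6 members was at least 1.5-fold lower, beside 7.00% of all genes tested. The direction of mt-Cytb, mt-Co2, mt-Co3 and mt-Atp6 therefore differed between the 2 scales, while mt-Co1 and mt-Atp8 were lower on both. These CPM values were made after the 20% limit, which removed a larger part of the WT barcodes, and their size depended on the barcodes taken. Without the limit the log2 ratio of the summed members was −0.531 (−0.532 to −0.529), in cells over 5000 UMIs −0.040 (−0.043 to −0.037), and in barcodes of 0 to 5% mtDNA 0.055 (0.049 to 0.061). That bin is cut by mtDNA percent itself, which was 3.30% in its WT and 3.33% in its mutant barcodes. The selection thus holds its summed ratio near 0, and the value cannot show whether the CPM difference shrinks. In cells over 5000 UMIs mt-Co2 gave 0.0074 and mt-Co3 0.039. At 0 to 5% mtDNA all but mt-Co1 and mt-Atp8 were above 0, though the interval of mt-Cytb, at 0.0076 (−0.0055 to 0.021), spanned no difference. In these 3 sets mt-Co1 and mt-Atp8 stayed below 0.

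Per kilobase of gene, mt-Atp6 was the most abundant of all 13 genes in both libraries, at 22573 CPM per kb in the WT and 19509 CPM per kb in the mutant cells. Then came mt-Co3 at 18472 and 16946 CPM per kb, mt-Co2 at 16175 and 14553 CPM per kb, and mt-Cytb at 10690 and 9499 CPM per kb. The order of these 4 was the same in both libraries. mt-Co1 followed at rank 6 in both, with 5874 and 4594 CPM per kb, below both other complex IV genes. mt-Atp8 stood at rank 11, with 1276 and 452 CPM per kb. The protein subunits COX1, COX2 and COX3 are built in equal numbers into complex IV, but the UMIs of their genes were not in that ratio. A 3′ library counts an RNA near its tail and not along its length. Before the division by length mt-Co1 stood at rank 5 of 13 by UMIs in both libraries.

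Cell types were assigned by clustering without the mtDNA genes and without the nuclear genes compared below, and by marker genes. Named cells comprised 8142 WT and 11654 mutant rod-like cells (Nrl, Sag, Pdc), 645 and 1142 cone-like cells (Arr3, Opn1sw, Gnat2), 232 and 641 bipolar-like cells (Trpm1, Grm6), and 116 and 391 amacrine-like cells (Gad1, Slc32a1). There were also 348 and 960 RPE-like cells (Ttr, Rgr, Lrat), from the pigment epithelium behind the retina, and 255 and 142 microglia- or macrophage-like cells (C1qa, Tyrobp). Further clusters, with 2791 WT and 3465 mutant cells, stayed unnamed. Doublets were not removed.

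Among the members, mt-Co1 varied most across the 6 named classes. In the WT library its share ran from 10.4% in rod-like cells through 11.002% in microglia- or macrophage-like, 11.3% in RPE-like, 12.1% in amacrine-like and 13.5% in cone-like cells to 15.1% in bipolar-like cells. In the mutant library the order was the same at both ends, with 8.93% in rod-like, 10.1% in RPE-like, 10.4% in microglia- or macrophage-like, 11.7% in amacrine-like, 11.8% in cone-like and 13.3% in bipolar-like cells. The bipolar-like share was 1.46 times the rod-like share in the WT and 1.49 times in the mutant library. On the log2 scale, bipolar-like over rod-like cells was 0.54 (0.52 to 0.56) in the WT and 0.57 (0.55 to 0.59) in the mutant library, and cone-like over rod-like cells 0.38 (0.37 to 0.39) and 0.40 (0.39 to 0.41). Amacrine-like and cone-like cells of the mutant library, at 11.7% and 11.8%, had overlapping intervals, as did RPE-like and microglia- or macrophage-like cells in each library. Among these 6 classes, bipolar-like cells were also highest and rod-like cells lowest at a finer clustering and without the mtDNA limit, where the WT bipolar-like share was 15.1% in each. The finer clustering again held 232 WT bipolar-like cells with 132120 mtDNA UMIs, as at the main resolution, so that its WT value is no separate check.

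Bipolar-like and cone-like cells held more UMIs than rod-like cells, with WT medians of 4951.5, 7721 and 1897 UMIs per cell. In cells with over 2000 and up to 5000 UMIs, a window added after the values were seen, mt-Co1 held 9.95% of the WT rod-like, 13.7% of the WT cone-like and 15.6% of the WT bipolar-like mtDNA UMIs. The mutant values in this window were 8.56%, 13.3% and 14.4%. The gap between rod-like and bipolar-like cells was thus also present in this window, though bipolar-like cells were still the deeper ones, with medians of 4030 and 3464.5 UMIs against 2984 and 2841 in rod-like cells. The amacrine-like values in the window, 10.8% and 10.6%, rested on 388 and 1576 mt-Co1 UMIs.

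The other members were more even across classes. mt-Co2 was the most even complex IV gene, with 13.03% to 13.7% in the WT and 13.9% to 14.5% in the mutant library, and the lowest value in amacrine-like cells in both. mt-Co3 ran from 16.3% in amacrine-like to 18.3% in RPE-like cells of the WT library, and from 16.9% to 19.5% in the same classes of the mutant library. mt-Cytb ran from 14.5% to 15.2% in the WT and from 14.6% to 16.0% in the mutant library, and was lowest in bipolar-like cells in both. mt-Atp6 was also lowest in bipolar-like cells, with 16.2% in the WT and 17.4% in the mutant library, and reached 19.1% in WT rod-like cells. In WT bipolar-like cells, mt-Co1 and mt-Atp6 were therefore near each other at 15.1% and 16.2%, where in WT rod-like cells they were 10.4% and 19.1%. Complex IV genes together made up 46.9% of the mtDNA UMIs of WT bipolar-like cells and 41.7% of those of WT rod-like cells. The complex V genes gave 16.5% and 19.5% in these classes.

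**Figure D2:**
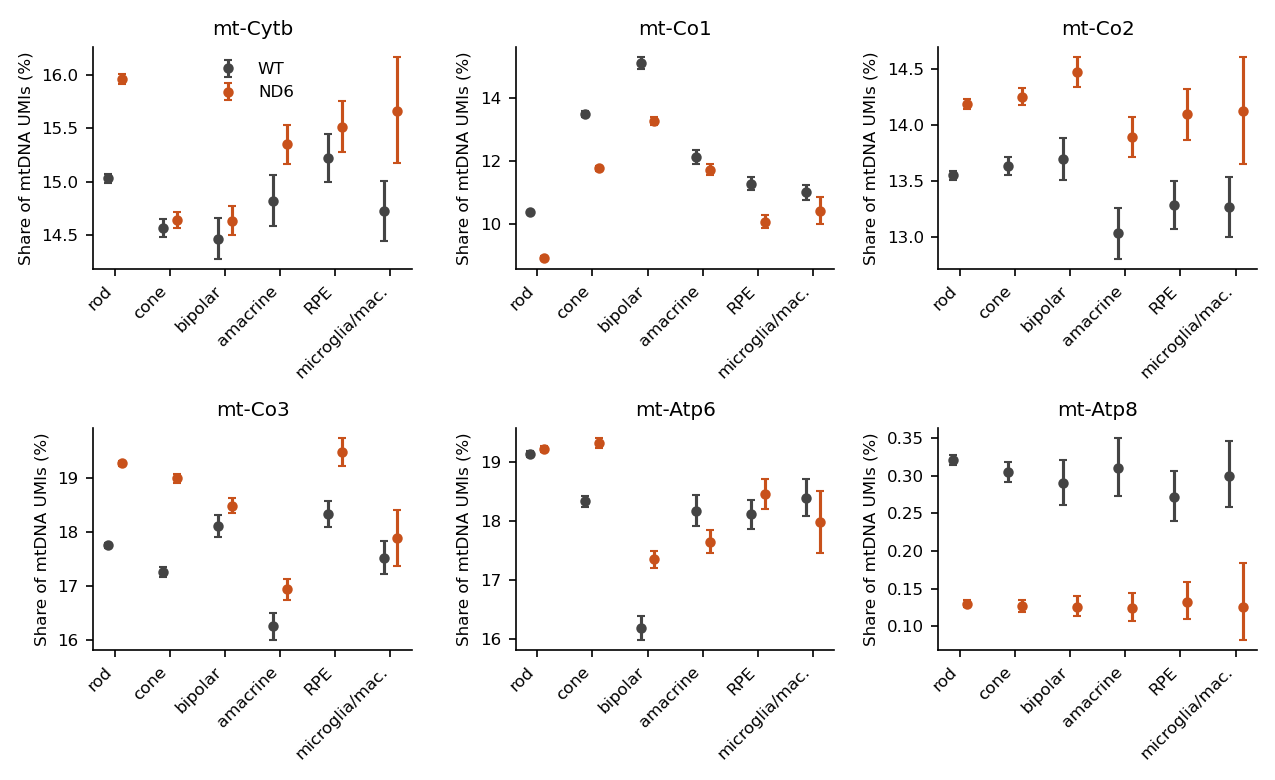
Share of mtDNA UMIs (%) of each member by cell class (microglia/mac. stands for microglia- or macrophage-like) in the WT (gray) and mutant (ND6, orange) library; points are sums over the cells of a class, bars are exact 95% counting intervals, and each panel has its own axis, which does not start at 0. mt-Co1 is highest in bipolar-like cells and lowest in rod-like cells of both libraries, and mt-Atp8 is lower in the mutant library in all 6 classes.

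Between the libraries, mt-Atp8 was lower in the mutant cells of each of the 6 classes, by log2 ratios from −1.32 to −1.04. It was past 1.5-fold in 6 of 6 classes, where 16.7% of the values of the 13 mtDNA-encoded genes in the 6 classes were. mt-Atp8 is also counted against mt-Atp6, which leaves the precursor with it as one RNA, so that the other mtDNA genes drop out. A 3′ library counts an RNA near its tail, and mt-Atp8 lies ahead of mt-Atp6 on that RNA. The ratio is therefore one of counted UMIs and not of separate RNAs. How the mt-Atp8 UMIs arise was not tested. In WT cells there were 16.9 mt-Atp8 UMIs per 1000 mt-Atp6 UMIs (16.6 to 17.2) and in mutant cells 6.94 (6.76 to 7.12). By class, the WT values lay between 15.0 in RPE-like and 17.9 in bipolar-like cells, and the mutant values between 6.55 in cone-like and 7.26 in bipolar-like cells. The WT and mutant ranges did not overlap, and the range within a library was narrow beside the gap between the libraries. In barcodes with 10 to 100 UMIs the values were 15.8 (13.1 to 18.9) in the WT and 9.12 (6.95 to 11.8) in the mutant library. At over 100 and up to 400 UMIs they were 16.4 (16.1 to 16.8) and 8.55 (8.20 to 8.90), so that the mutant value stood above that of mutant cells. Whether the genotype, the animal or the preparation of the library set that level cannot be told apart with 1 library per genotype.

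**Figure D3:**
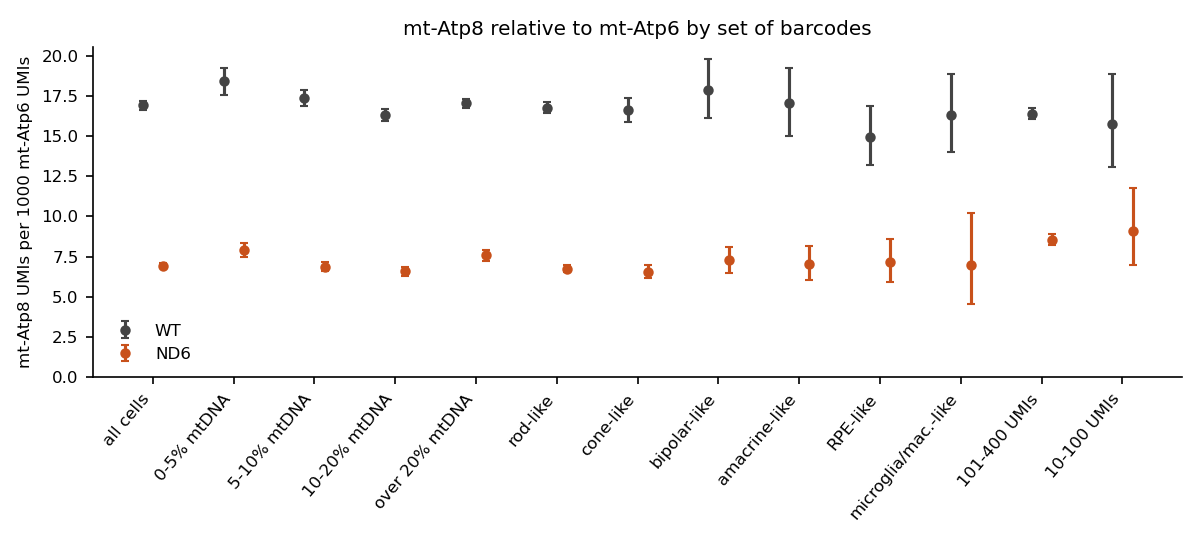
mt-Atp8 UMIs per 1000 mt-Atp6 UMIs in all cells, in 4 bins of the mtDNA percent of the barcode, in 6 cell classes and in barcodes with fewer UMIs than a cell (over 100 and up to 400, and 10 to 100), for the WT (gray) and mutant (ND6, orange) library, with exact 95% intervals for counting error. WT values lie between 15.0 and 18.4 and mutant values between 6.55 and 9.12 in the sets shown.

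mt-Co1 was also lower in the mutant cells of 6 of 6 classes as a share, by log2 ratios from −0.22 in rod-like to −0.047 in amacrine-like cells, in no class past 1.5-fold. In rod-like cells the ratio was −0.217 (−0.225 to −0.209), in cone-like cells −0.198 (−0.211 to −0.185) and in bipolar-like cells −0.187 (−0.212 to −0.162). The amacrine-like value turned to 0.025 without the mtDNA limit and to 0.033 at the finer clustering, and the microglia- or macrophage-like value of −0.078 turned to 0.037 without the limit. In cells with over 2000 and up to 5000 UMIs the rod-like value stayed at −0.22, while the cone-like value was −0.044 (−0.095 to 0.0067) and the bipolar-like value −0.11 (−0.16 to −0.066). The unnamed clusters gave 10.7% and 10.8%, a log2 ratio of 0.016 (0.0012 to 0.031). mt-Co2 was higher in the mutant cells of 6 of 6 classes, by log2 ratios from 0.064 to 0.092. mt-Co3 was higher in 6 of 6 classes, from 0.029 to 0.14, with the counting interval of 1 class reaching below 0. mt-Cytb had intervals above 0 in 3 of 6 classes, and 0.086 (0.080 to 0.092) in rod-like cells. mt-Atp6 differed in direction between classes, with 0.100 (0.076 to 0.12) in bipolar-like and −0.042 (−0.071 to −0.013) in amacrine-like cells. At over 2000 and up to 5000 UMIs the bipolar-like value turned to −0.066 (−0.11 to −0.018).

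By CPM, the classes did not move together. All members were lower in rod-like, cone-like, bipolar-like and microglia- or macrophage-like cells of the mutant library, and mt-Co1 gave −0.41, −0.42, −0.45 and −0.37 in these. In amacrine-like cells, 5 of the 6 members were higher by CPM, with mt-Co2 at 0.32, and mt-Atp8 was lower at −1.09. The median depth of these cells was 7667 UMIs for WT and 3125 UMIs for ND6. In the 14 WT and 72 mutant amacrine-like cells with over 2000 and up to 5000 UMIs, all 6 members were lower by CPM. For the 5 members other than mt-Atp8 the counting intervals spanned no difference. Among these, mt-Co2 was −0.059 (−0.20 to 0.085) and mt-Co1 −0.13 (−0.29 to 0.032). The higher CPM of these 5 members was thus not seen in this window, and a lower CPM was not shown for any of the 5 alone. Summed, the 6 members gave −0.088 (−0.149 to −0.027), where mt-Atp8 held 14 of 2697 WT and 20 of 11291 mutant UMIs. In RPE-like cells mt-Cytb, mt-Co2, mt-Co3 and mt-Atp6 were between 0.026 and 0.087, and mt-Co1 was −0.16. The intervals of mt-Cytb and mt-Atp6 spanned no difference. At the finer clustering mt-Atp6 turned to −0.042 (−0.071 to −0.012) and mt-Cytb to −0.026, while mt-Co2 was 0.020 and mt-Co3 0.021. The median depth of RPE-like cells was 2323.5 UMIs for WT and 1114 UMIs for ND6. The mtDNA percent of all UMIs was 5.70% in WT and 6.67% in mutant amacrine-like cells, against 8.51% and 7.43% in rod-like cells.

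Single cells spread further than counting alone gives for mt-Co1, mt-Cytb, mt-Co3 and mt-Atp6 in rod-like, cone-like, bipolar-like and RPE-like cells. Among cells with at least 100 mtDNA UMIs, the median mt-Co1 share of 7162 WT rod-like cells was 10.1%, with quartiles of 8.49% and 11.9%. In 7934 mutant rod-like cells it was 8.33%, with quartiles of 6.52% and 10.3%. The SD over cells was 2.67 percentage points in the WT, where counting alone would give 1.94, and 2.85 in the mutant library, where it would give 2.08. In bipolar-like cells the median was 15.6% over 220 WT and 13.7% over 501 mutant cells, with an SD of 3.38 and 3.77 against 1.82 and 2.12 from counting. In mutant rod-like cells the SD of mt-Cytb was 3.71 against 2.69 from counting, that of mt-Co3 3.53 against 2.89 and that of mt-Atp6 3.53 against 2.89. The WT values were 2.80 against 2.28, 2.97 against 2.44 and 2.89 against 2.51. In WT cone-like cells the same 3 genes gave 2.21 against 1.52, 2.26 against 1.63 and 2.36 against 1.67. For mt-Co2 in rod-like cells the SD of 2.36 in the WT was near the 2.18 of counting, so that cells differed little in mt-Co2 beyond sampling. For mt-Atp8 the SD of 0.366 was near the 0.361 of counting. Its median share was 0.236% in WT rod-like cells, and in mutant rod-like cells the median and both quartiles were 0. Cells are not replicates, and these values describe the spread within a library.

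The share of each gene was then followed over bins of the mtDNA percent of the barcode, without the 20% limit. The bins held 1419 WT and 4684 mutant barcodes at 0 to 5%, 3581 and 6799 at 5 to 10%, 7529 and 6912 at 10 to 20%, and 10647 and 3861 over 20%. Median UMIs fell from 4618 to 1014 over these bins in the WT and from 1572 to 791 in the mutant library, so that depth and mtDNA percent moved together. In the WT library mt-Co1 went from 11.9% in the lowest bin through 11.4% and 10.7% to 10.6% in the highest, a log2 change of −0.16 (−0.17 to −0.15). In the mutant library it went from 10.96% through 10.3% and 9.60% to 12.3%, so that the highest bin was above all others. The log2 ratio of mutant over WT was −0.12, −0.16 and −0.16 in the first 3 bins and 0.21 (0.21 to 0.22) over 20%.

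In the mutant library mt-Atp6 and mt-Co3 went down with mt-Co1 over the first 3 bins, and at the step to over 20%, where mt-Co1 went up, both went down further. mt-Atp6 was 19.4%, 19.1%, 18.6% and 17.2% from the lowest to the highest mutant bin, and 18.9%, 18.9%, 18.7% and 18.4% in the WT library. mt-Co3 was 19.2%, 19.0%, 18.8% and 17.1% in the mutant bins, while in the WT bins it was 17.0%, 17.5%, 18.0% and 17.7%. mt-Cytb was 14.6%, 15.4%, 16.0% and 14.8% in the mutant and 14.6%, 14.7%, 15.2% and 15.0% in the WT library. mt-Co2 stayed within 13.6% to 14.3% in the mutant and 13.3% to 13.6% in the WT library, and was higher in the mutant library in 4 of 4 bins. mt-Atp8 was lower in the mutant library in 4 of 4 bins, by log2 ratios from −1.33 to −1.18, all past 1.5-fold, where 19.2% of the values of the 13 genes in the 4 bins were. The 4 WT values of mt-Atp8 were 0.348%, 0.329%, 0.304% and 0.314%, and the 4 mutant values 0.153%, 0.131%, 0.122% and 0.131%. The WT and mutant values of mt-Atp8 were apart in each bin.

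**Figure D4:**
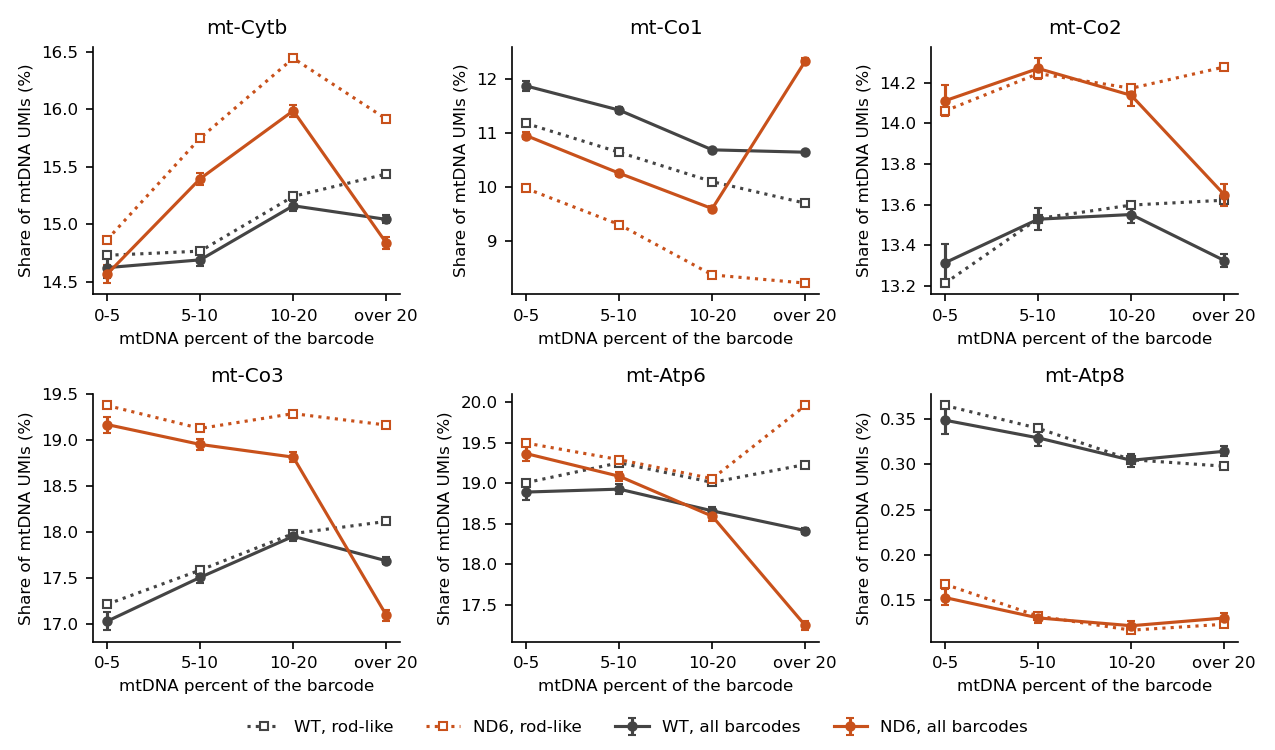
Share of mtDNA UMIs (%) of each member by the mtDNA percent of the barcode, for WT (gray) and mutant (ND6, orange), over all barcodes (filled circles, with exact 95% counting intervals) and over rod-like barcodes clustered without the mtDNA limit (open squares); each panel has its own axis, which does not start at 0. Over all barcodes, mutant mt-Co1 turns up to 12.3% over 20% mtDNA, and among rod-like barcodes it goes down to 8.22%.

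The barcodes over 20% mtDNA were not of the same classes in both libraries. When all barcodes were clustered without the limit, rod-like barcodes held 40.2% of the mtDNA UMIs of this bin in the WT but 9.72% in the mutant library. RGC-like barcodes held 5.49% in the WT and 35.7% in the mutant library, and unnamed clusters held 47.6% and 48.2%. The RGC-like class was named only without the limit and from 3 raised markers with Nefl among them, the fewest that the naming rule allows. Most of the RGC markers looked at were not raised in it. In the clustering with the limit, clusters led by Nefl stayed unnamed. The RGC-like barcodes over 20% mtDNA had mt-Co1 at 12.7% in the WT and 13.8% in the mutant library, with a log2 ratio of 0.11 (0.095 to 0.13). Their mt-Co3 was 16.1% and 15.8%. They were thus high in mt-Co1 and low in mt-Co3 and in mt-Atp6, which stood at 16.4% in both libraries. The rod-like barcodes over 20% had mt-Co1 at 9.70% and 8.22%, a log2 ratio of −0.24 (−0.27 to −0.21), the direction of the lower bins. Their mt-Co3 was 18.1% and 19.2%, and their mt-Atp6 was 19.2% and 19.96%. In the same bin mt-Co1 was also lower in mutant bipolar-like (14.8% and 13.5%) and Müller-like barcodes (11.1% and 8.59%). It was higher in mutant unnamed (11.1% and 12.1%), cone-like (12.5% and 13.6%) and RPE-like barcodes (9.63% and 10.6%). Amacrine-like (12.3% and 12.8%) and microglia- or macrophage-like barcodes (10.1% and 12.1%) were higher as well. A higher mutant mt-Co1 in this bin was thus not limited to RGC-like barcodes. Among rod-like barcodes mt-Co1 went down over the bins in both libraries, from 11.2% to 9.70% in the WT and from 9.98% to 8.22% in the mutant library. The direction of mt-Co1, mt-Co3, mt-Atp6 and mt-Cytb in the highest bin thus turned between all barcodes and rod-like barcodes, and that of mt-Co2 and mt-Atp8 did not.

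**Figure D5:**
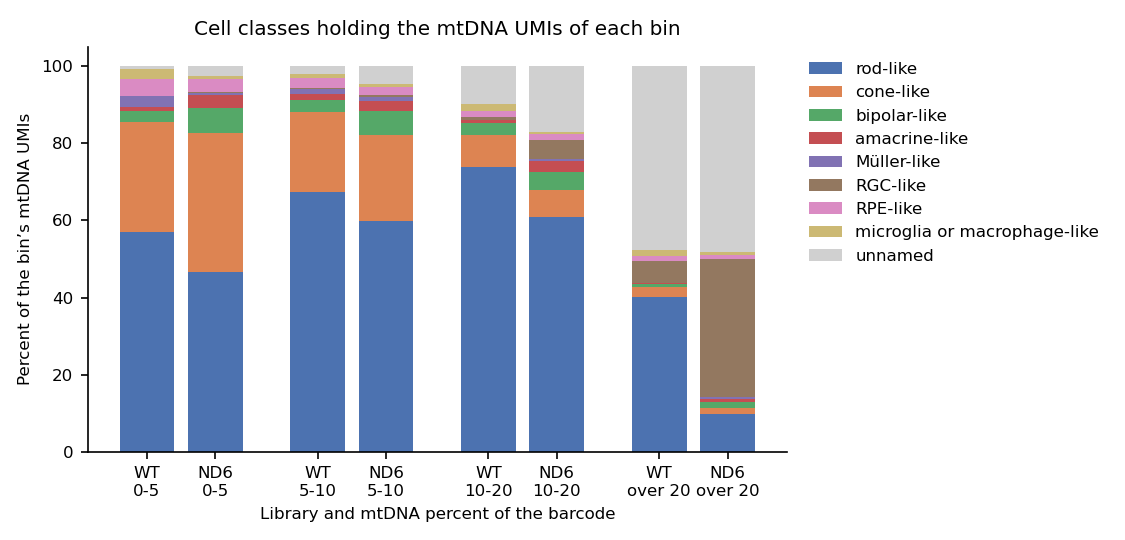
Percent of the mtDNA UMIs of each bin of mtDNA percent (stacked to 100) that each cell class holds in the WT and mutant (ND6) library, with classes from the clustering without the mtDNA limit. Over 20% mtDNA, rod-like barcodes hold 40.2% in WT and 9.72% in the mutant library, and RGC-like barcodes hold 5.49% and 35.7%.

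Without the limit, mutant mt-Co1 was higher in the RGC-like class than in bipolar-like cells, at 13.6% and 13.3%. The RGC-like class, ganglion cells being the neurons of the optic nerve, comprised 310 WT and 761 mutant barcodes over all bins, with 33.5% and 27.3% of UMIs from mtDNA. Its mt-Co1 share was 12.6% in the WT and 13.6% in the mutant library, with a log2 ratio of 0.10 (0.086 to 0.12), the opposite direction to rod-like cells. mt-Co2 gave 12.4% and 13.4% there, mt-Co3 16.1% and 15.9%, and mt-Atp6 16.5% and 16.7%. mt-Atp8 gave 0.343% and 0.135%, a log2 ratio of −1.35 (−1.48 to −1.21), near that of the other classes. Müller-like barcodes, 61 WT and 120 mutant, also appeared only without the limit in the clustering at the main resolution, with mt-Co1 at 12.4% and 10.4% and mt-Co3 at 16.1% and 19.0%.

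Depth did not change the direction of the all-cell ratios of mt-Co1, mt-Co2, mt-Co3, mt-Cytb and mt-Atp8. In 4 windows of UMIs per cell, mt-Co1 had log2 ratios of −0.15 at up to 1000 UMIs, −0.23 from there to 2000, −0.096 from there to 5000 and −0.11 over 5000. The ratios of mt-Co3 were 0.093, 0.089, 0.088 and 0.108 in the same windows, and those of mt-Atp8 were −1.37, −1.25, −1.28 and −1.29. The mt-Co3 and mt-Atp8 differences were of nearly the same size at every depth. mt-Atp6 changed direction between windows, from −0.014 at over 2000 and up to 5000 UMIs to 0.030 over 5000.

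The nuclear partners of the members were compared by CPM in all cells. Complex III, IV and V take most of their subunits from nuclear genes, of which 9, 12 and 16 were listed and all were tested. Of these, 8 of 9, 10 of 12 and 14 of 16 were higher in the mutant library. Over all tested genes, 43.3% were lower by any amount. None of the listed genes was 1.5-fold apart, beside 25.6% of all tested genes in either direction. All tested genes reach down to 20 UMIs, whereas Uqcrc2, the least counted of these listed genes, had 5720 WT and 7218 mutant UMIs. The median log2 ratios of the lists were 0.15, 0.16 and 0.17, beside 0.067 for all genes tested. Without the mtDNA limit the medians were 0.165, 0.127 and 0.143, while that of all genes was 0.170, so that the lists no longer stood above it. For complex III, the highest were Uqcr11 at 0.28 and Uqcrq at 0.27, both small subunits, and the lowest were Uqcrb at −0.084 and Uqcr10 at 0.086. For complex IV, Cox4i1 gave 0.29 and Cox6c 0.28, while Cox8a gave −0.19 and Cox6a1 −0.035. For complex V, Atp5g1, which codes for the proton-carrying c ring, gave 0.34, and Atpif1, the inhibitor of the ATP synthase, gave 0.32, while Atp5k gave −0.072 and Atp5a1, the alpha subunit, −0.041.

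A last list held 19 nuclear genes that make, cut, stabilize or polyadenylate mtDNA transcripts. The mutant level was above that of WT for 8 and under it for 11, beside 43.3% of all tested genes that were lower by any amount. The median of the list was −0.073. At least 1.5-fold lower were 2 of 19, beside the 7.00% of all genes tested. They were Pnpt1, the mitochondrial polynucleotide phosphorylase, with 1042 WT and 779 mutant UMIs and a log2 ratio of −0.63 (−0.76 to −0.49), and Trmt10c, a subunit of the mitochondrial RNase P, with 1384 and 1048 UMIs and −0.61 (−0.73 to −0.49). Neither was past 1.5-fold without the mtDNA limit. Mtpap, the mitochondrial poly(A) polymerase, gave −0.31, Tfam, which packs mtDNA and starts its transcription, gave −0.17, and Lrpprc, which stabilizes the mRNAs, gave 0.27.

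The summed level of the 6 members was then compared with that of every other gene over the 12 sums of a named class and a library. The lowest sum was 40971 CPM in WT RPE-like cells and the highest 64816 CPM in WT rod-like cells. Among the members, mt-Co2 followed the sum most closely, with Pearson r = 0.989, then mt-Cytb with 0.970, mt-Co3 with 0.966, mt-Atp6 with 0.946, mt-Co1 with 0.755 and mt-Atp8 with 0.534. Each member is part of that sum. The complex I gene mt-Nd4 reached 0.960. Of 10016 nuclear genes with at least 500 UMIs, the 5 most alike were Zfas1 (0.822), U2af1 (0.811), Snrpf (0.809), Snhg12 (0.790) and Spout1 (0.788). The 12 sums share 2 libraries and differ in depth, so that these values are a description.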

How the data were processed

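Droplet-based 3′ scRNA-Seq (10x Genomics) was made from retina, 1 library for WT and 1 for ND6. Per the labels, the authors aligned reads to mm10 with Cell Ranger 3.0.2. They deposited raw UMI counts per gene and barcode, over 6794880 barcodes and without normalization. The matrices hold 77958836 WT and 80358255 mutant UMIs. Cell Ranger counts a read where it fits 1 gene, so that where mt-Atp8 and mt-Atp6 overlap a read counts only if it can be assigned to one of them.

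UMIs were summed per set of barcodes with Python 3.11.15 and scipy 1.17.1. Shares have exact Clopper-Pearson and ratios exact conditional intervals at 95%, which cover counting error only. The comparison of all genes took those with a sum of 20 UMIs or more, and at least 1.5-fold was the mark of a large difference. On simulated counts of the size of the all-cell comparison, 96.0% of 200 changed genes and 95.3% of 12509 unchanged genes had their true ratio in the interval. The counts were Poisson draws, the model that the intervals assume, so that this checks the calculation only. It cannot show that the intervals hold for these data, where single cells spread further than counting alone gives.

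Cells were clustered with scanpy 1.11.5 (3000 variable genes scaled within library, 30 principal components, 20 neighbours, Leiden resolution 1). A cluster was named with at least 20 cells and at least 3 markers of 1 class raised at least 2-fold and found in at least 20% of its cells, and no class with as many markers among the 10 genes that led it. Where no class had 3 raised markers, a cluster was called rod-like if 3 rod markers were raised over the named clusters of other classes than cones, and if no other class had more markers than rods among their leading 10 genes. This naming rule was settled after the clusters were seen, and clusters led by haemoglobin genes were left unnamed. Both microglia- or macrophage-like clusters were led by immune genes, one by Tyrobp and C1qb among others and one by Il1a and Tnf. No doublet caller was run and doublets were kept. 

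The members and gene lists were chosen with earlier results of these data known. Named genes are the 6 members, nuclear list genes at least 1.5-fold apart or the 2 highest and 2 lowest of a list, and the 5 nuclear genes most like the members' sum by Pearson r of log2(CPM + 1). Mtpap, Tfam and Lrpprc were named for their roles after their values were seen. Sequences and positions come from GENCODE M21, whose identifiers matched all 13 mtDNA-encoded genes. Alternatives were CPM, other limits on UMIs and mtDNA, equal weight per cell, smaller totals of mtDNA genes and other clusterings.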

Additional observations from a re-analysis of the deposited data

How the results depend on the processing

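The all-cell log2 ratios of share, mutant over WT, were compared under 8 alternatives. None of the ratios past 1.5-fold changed direction. As CPM of all UMIs they were −1.50 for mt-Atp8, −0.35 for mt-Co1, −0.21 for mt-Atp6, −0.17 for mt-Cytb, −0.15 for mt-Co2 and −0.12 for mt-Co3, which turns the direction of all but mt-Co1 and mt-Atp8. Without the mtDNA limit mt-Co1 was −0.024, mt-Cytb 0.032, mt-Co3 0.062 and mt-Atp6 −0.0079. With at least 2000 UMIs per cell mt-Cytb was 0.027, mt-Co1 −0.096, mt-Co2 0.078 and mt-Atp6 0.017. With cells weighted equally mt-Cytb was 0.068, mt-Co2 0.062, mt-Atp6 0.0026 and mt-Atp8 −1.19. As a share of 10 genes, without mt-Atp8, mt-Nd4l and mt-Nd6, mt-Cytb was 0.044, mt-Co3 0.090, mt-Co2 0.062, mt-Co1 −0.14 and mt-Atp6 0.0036. As a share of the 6 members, mt-Cytb was 0.025, mt-Co3 0.071, mt-Co2 0.043, mt-Co1 −0.16 and mt-Atp6 −0.015. The remaining values stayed within the counting interval, those without the shared barcodes (an alternative added after the data were seen) included. The cause of these moves was not tested.

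By CPM, the log2 ratio of the summed members went from −0.195 to −0.53 without the mtDNA limit, −0.040 in cells over 5000 UMIs and 0.055 in barcodes of 0 to 5% mtDNA (added after the data were seen). The barcodes of 0 to 5% were selected on mtDNA percent itself, which holds their summed ratio near 0.

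In the bins, 8 of 96 alternative values differed in sign from the reported value, and in the classes 23 of 180, of which 6 were on the scale of shares. mt-Atp8 kept its sign in 8 of 8 alternatives for all cells, 16 of 16 for the bins and 30 of 30 for the classes.

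No paired analysis was possible because each genotype has 1 library, and leaving out a replicate was not possible for the same reason. Counting error was small beside these differences for 5 members, but it does not cover differences between mice, dissections or library preparations. The microglia- or macrophage-like mt-Atp8 value rests on 26 mutant UMIs.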
